A study of Mus musculus with 18 samples.

Results

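Members of the tumor necrosis factor (TNF) superfamily were followed as loci in a ChIP-seq time course of transcription factor binding. The members were the protein-coding genes of the mm9 mouse annotation (GENCODE vM1) with a symbol starting with Tnfsf or Tnfrsf, plus Cd40. These were 32 of 22271 protein-coding genes, 11 ligands and 21 receptors. A locus was the gene span with 20 kb on either side.

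The cells were C10, a HAFTL-derived mouse pre-B cell line with a GFP-tagged C/EBPα-estrogen receptor fusion, in which β-estradiol starts conversion to macrophage-like cells. Uninduced cells (0 hpi, hours post-induction; the labels give ethanol as the solvent control) and cells grown with β-estradiol, IL-3 and CSF-1 were compared, and all libraries carried the fusion. In all, 18 libraries were analysed here: 5 for C/EBPβ and 5 for PU.1 (0, 3, 12, 24 and 48 hpi), and 8 for C/EBPα (the same times plus 10, 30 and 60 min). Each factor and time had 1 library, so there was no replicate check of any difference, no test between times was made, and the intervals given cover counting error only. The C/EBPα antibody does not separate the fusion from the endogenous protein, and a ChIP library holds no RNA from which the cell type could be checked.

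The data hold uniquely placed reads, of which 5968544 to 24909437 were kept in the C/EBPα libraries, 2901164 to 5843194 in those of C/EBPβ and 6574957 to 11349498 in those of PU.1. Reads were counted in 200-bp bins and scaled to 10000000 reads per library, and all site values below are such normalised reads. A bin was called where its reads passed a Poisson threshold (at least 7 to 15 reads, depending on the library) and stood 4-fold or more over the surrounding 10 kb, and called bins that touched or lay 1 bin apart formed a site, read at its strongest bin. A site was higher or lower between times where log2(normalised reads + 5) differed by 2-fold or more and the 95% Poisson intervals did not overlap. The C/EBPα libraries at 10, 30 and 60 min were sequenced on another instrument with 50-bp reads, so that early times and sequencer cannot be told apart. In the C/EBPβ libraries at 12 and 24 hpi, with 2901164 and 3122683 reads, a single read already counts for more than 3 on this scale.

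Ligands of the TNF superfamily are mostly membrane proteins that act as trimers, and their receptors signal through TRAF adaptors or, for the death receptors, through a cytoplasmic death domain toward NF-κB, MAP kinases or cell death. In the B lineage the receptors for BAFF and APRIL and CD40 govern survival and maturation, whereas macrophages use many ligands of the family to talk to T cells. C/EBPα and C/EBPβ are basic leucine zipper factors that recognise the same consensus, and PU.1 is an ETS factor needed in both lineages.

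The following 200-bp bins are shown because the time courses described below turn on them. All were read from the + strand of mm9, and capitals mark matches to the C/EBP consensus TTGCNNAA or to the PU.1 core GAGGAA on either strand. They lie at chr11:60936001-60936200 (4156 bp upstream of Tnfrsf13b), chr15:82049401-82049600 (5289 bp from the Tnfrsf13c start, beyond its 3′ end), chr4:144831001-144831200 (an intron of Tnfrsf1b), chr4:154285401-154285600 (17171 bp from the Tnfrsf14 start, beyond its 3′ end), chr7:150876001-150876200 (4324 bp upstream of Tnfrsf23, in an intron of Osbpl5), chr3:27201401-27201600 (14449 bp upstream of Tnfsf10), chr17:57252401-57252600 (7693 bp from the Tnfsf9 start, beyond its 3′ end) and chr17:57337801-57338000 (4289 bp upstream of Tnfsf14).
Tnfrsf13b -4156: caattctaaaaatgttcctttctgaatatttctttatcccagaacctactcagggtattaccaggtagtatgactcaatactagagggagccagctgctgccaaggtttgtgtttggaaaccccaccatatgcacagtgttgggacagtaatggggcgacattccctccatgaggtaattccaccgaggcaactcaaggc
Tnfrsf13c +5289: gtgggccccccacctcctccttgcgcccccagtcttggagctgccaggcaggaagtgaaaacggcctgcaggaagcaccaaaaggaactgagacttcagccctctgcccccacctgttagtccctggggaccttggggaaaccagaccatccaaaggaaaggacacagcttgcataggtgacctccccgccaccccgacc
Tnfrsf1b +5672: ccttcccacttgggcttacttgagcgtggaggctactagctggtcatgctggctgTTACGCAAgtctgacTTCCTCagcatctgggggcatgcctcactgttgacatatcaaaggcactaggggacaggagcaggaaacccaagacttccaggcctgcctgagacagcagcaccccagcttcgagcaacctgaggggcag
Tnfrsf14 +17171: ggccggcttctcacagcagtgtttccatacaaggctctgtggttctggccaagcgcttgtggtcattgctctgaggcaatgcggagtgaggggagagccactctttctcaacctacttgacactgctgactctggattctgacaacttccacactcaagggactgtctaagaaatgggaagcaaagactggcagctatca
Tnfrsf23 -4324: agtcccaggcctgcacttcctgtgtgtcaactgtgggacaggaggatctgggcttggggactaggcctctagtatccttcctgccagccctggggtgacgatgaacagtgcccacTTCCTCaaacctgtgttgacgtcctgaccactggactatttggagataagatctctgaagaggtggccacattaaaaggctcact
Tnfsf10 -14449: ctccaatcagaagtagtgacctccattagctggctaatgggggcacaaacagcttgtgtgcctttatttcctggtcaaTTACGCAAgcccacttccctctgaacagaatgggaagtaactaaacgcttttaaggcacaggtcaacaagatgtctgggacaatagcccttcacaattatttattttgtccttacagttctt
Tnfsf9 +7693: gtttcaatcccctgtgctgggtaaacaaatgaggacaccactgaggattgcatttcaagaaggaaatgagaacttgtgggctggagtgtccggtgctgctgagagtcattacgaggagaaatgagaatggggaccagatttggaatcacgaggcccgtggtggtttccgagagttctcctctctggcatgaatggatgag
Tnfsf14 -4289: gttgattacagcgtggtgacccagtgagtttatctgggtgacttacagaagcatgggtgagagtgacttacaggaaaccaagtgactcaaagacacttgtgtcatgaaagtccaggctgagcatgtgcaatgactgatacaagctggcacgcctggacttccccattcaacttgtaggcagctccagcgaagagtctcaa
The bin of Tnfrsf1b holds a C/EBP match followed closely by a PU.1 core match. The C/EBPα bins of Tnfrsf13b, Tnfrsf14 and Tnfsf9 hold neither consensus in these letters.

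Most loci of the family were bound at some time. PU.1 was called in 29 of 32 loci (75.1% of all protein-coding loci), C/EBPα in 24 (55.4% of all) and C/EBPβ in 18 (39.3% of all). The member loci had a median length of 58693 bp against 55488 bp for all loci, and held a median of 5 sites against 3. The decoy receptor gene Tnfrsf11b (osteoprotegerin, which traps RANKL) had no site. Tnfsf8 (CD30 ligand) had 1 site, called for PU.1, and Tnfsf15 (TL1A, a T cell costimulator) had 1 site, called for C/EBPα.

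**Figure D1:**
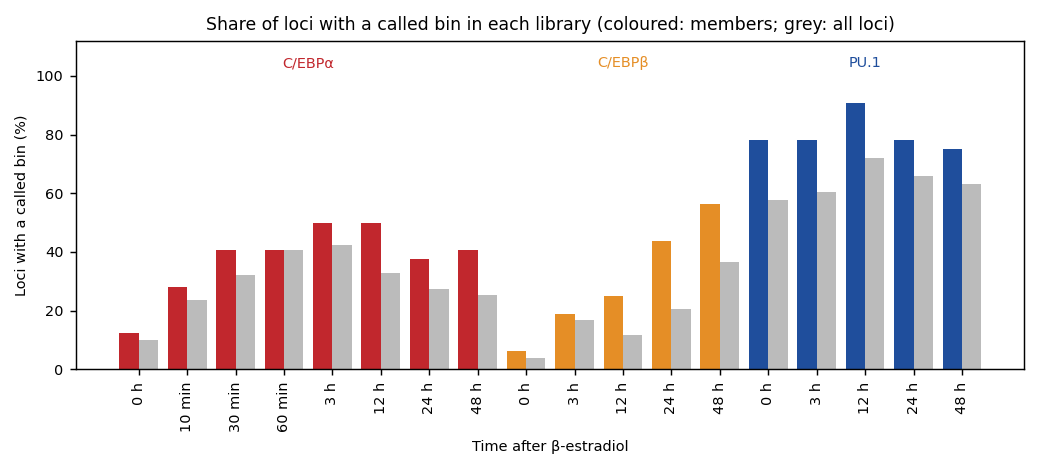
Percent of the 32 TNF superfamily loci (coloured bars) and of all 22271 protein-coding loci (grey bars) with a called bin, for each of the 18 libraries in order of time. For C/EBPβ the members' share went from 6.25% at 0 hpi to 56.2% at 48 hpi and that of all loci from 3.79% to 36.7%, and for PU.1 the members' share was between 75% and 90.6% at every time and that of all loci between 57.6% and 72%.

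Over the 18 libraries the member loci held 145 sites, of which 68 were intergenic, 56 intronic, 11 in coding sequence, 9 in UTRs and 1 in another exon. Of these, 26 lay within 1000 bp of an annotated start of the member, and for 49 the nearest start belonged to a gene outside the family. A further limit is that 21 sites lay in the loci of 2 members. PU.1 was the only factor called at 80 sites (58.6% of the 59999 sites in all protein-coding loci), C/EBPα or C/EBPβ was called at 65 (41.4% of all), and all 3 factors were called at 19 (8.54% of all).

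C/EBPα sites in these loci peaked at different times. Of 56 C/EBPα sites, 12 had their highest value at 10, 30 or 60 min (36.4% of all C/EBPα sites in protein-coding loci), 11 at 3 hpi (30.4% of all), 22 at 12 hpi (18.7% of all) and 10 at 24 or 48 hpi (13.1% of all), and the remaining site at 0 hpi. The highest value was taken with no rule on intervals, so near ties between times also count. The 12-hpi library was the smallest of C/EBPα, and with all C/EBPα libraries thinned to its depth, an alternative chosen after seeing the data, 18 of 46 sites were highest there (20.5% of all). From 0 to 48 hpi, 9 of the 56 sites were higher (12.3% of all) and 0 lower (0.431% of all). From 3 to 48 hpi, 12 were lower (23.8% of all) and 5 higher (2.43% of all). A site entered these counts if called in any C/EBPα library, and 3 member sites were called at 0 hpi, 34 at 3 hpi and 19 at 48 hpi. Such a choice favours higher calls and a raised median ratio from 0 to 48 hpi. From 3 to 48 hpi it favours lower calls, and both hold among members and all sites alike. With flanks of 10 kb in place of 20 kb, 5 of 42 were higher from 0 to 48 hpi (12% of all), and 6 were lower (23.6% of all) and 3 higher (2.41% of all) from 3 to 48 hpi. Without the rule on intervals, 18 of 56 were higher from 0 to 48 hpi (22.2% of all), and with a 3-fold rule 3 of 56 were higher from 3 to 48 hpi (1.19% of all).

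C/EBPβ and PU.1 followed other courses. From 0 to 48 hpi, 19 of 38 C/EBPβ sites were higher (41.8% of all) and 0 lower (0.183% of all). A site entered this count if called in any C/EBPβ library, and 35 member sites were called at 48 hpi but 2 at 0 hpi. This choice of sites favours higher over lower calls and a raised median ratio, among members and all sites alike. The C/EBPβ count was 12 of 29 in thinned libraries (39.6% of all), 11 of 25 with flanks of 10 kb (41.8% of all), 33 of 38 without the rule on intervals (78% of all) and, at 24 in place of 48 hpi, 7 of 38 (20.5% of all). PU.1 was higher at 15 of 111 sites (10.7% of all) and lower at 7 (5.72% of all), and 23 of the 111 were called at all 5 times (26.4% of all). The count of higher PU.1 sites was 9 of 83 in thinned libraries (9.89% of all), 9 of 111 at 24 in place of 48 hpi (7.33% of all) and 27 of 111 without the rule on intervals (17.8% of all). The median log2 ratio of 48 over 0 hpi was 0.52 for C/EBPα (0.29 over all sites), 2.02 for C/EBPβ (1.75) and 0.24 for PU.1 (0.13). PU.1 was called at 0 hpi at 11 of the 56 C/EBPα sites (24.7% of all) and at any time at 30 (46.8% of all).

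**Figure D2:**
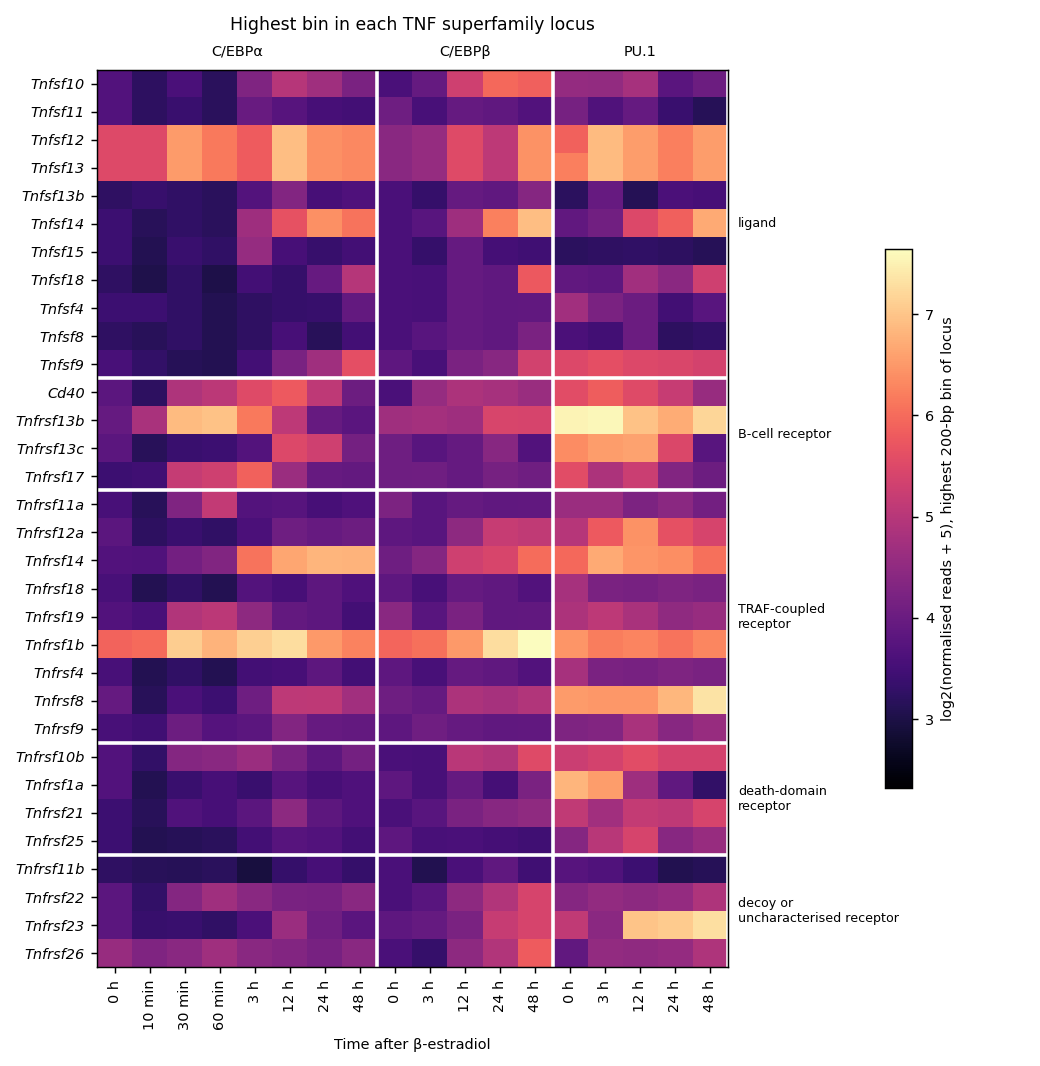
Highest 200-bp bin of each member locus in each library, as log2(normalised reads + 5), with members in rows by role and libraries in columns by factor and time. The row of Tnfrsf13b is bright for C/EBPα at 30 and 60 min and for PU.1 throughout, those of Tnfsf14 and Tnfsf18 brighten late, and Tnfsf12 and Tnfsf13 share their strongest C/EBPα bin.

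Grouped by role, 6 of the 9 sites with higher C/EBPα at 48 hpi were credited to ligands. Among sites credited to the 11 ligands, C/EBPα was higher at 48 than at 0 hpi at 6 of 12, C/EBPβ at 7 of 11 and PU.1 at 8 of 34, with PU.1 lower at 2. Over all sites in protein-coding loci, C/EBPα was higher at 12.3%, C/EBPβ at 41.8% and PU.1 at 10.7%, and PU.1 was lower at 5.72%. The 4 receptors grouped here as B-cell receptors, a label that does not mean the antigen receptor, were Cd40, Tnfrsf13b, Tnfrsf13c and Tnfrsf17. Among their sites C/EBPα was higher at 0 of 12, C/EBPβ at 1 of 6 and PU.1 at 0 of 16, and PU.1 was lower at 3. For the TRAF-coupled, death-domain and decoy or uncharacterised receptors, C/EBPα was higher at 3 of 25, 0 of 3 and 0 of 4 sites. In that order, C/EBPβ was higher at 7 of 15, 1 of 2 and 3 of 4, and PU.1 at 1 of 37, 0 of 12 and 6 of 12. PU.1 was lower at 1, 1 and 0 of these sites, and from 3 to 48 hpi C/EBPα was lower at 4 of 25, 0 of 3 and 0 of 4. From 3 to 48 hpi, C/EBPα was lower at 6 of the 12 B-cell receptor sites and at 2 of the 12 ligand sites, against 23.8% of all C/EBPα sites. Sites of 1 locus are not independent: Tnfrsf13b held 3 of these 6, and Tnfsf14 and Tnfsf18 each held 2 of the 6 ligand sites with higher C/EBPα. The roles were textbook groups chosen with results of these data known, and no test of the difference between roles was made.

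**Figure D3:**
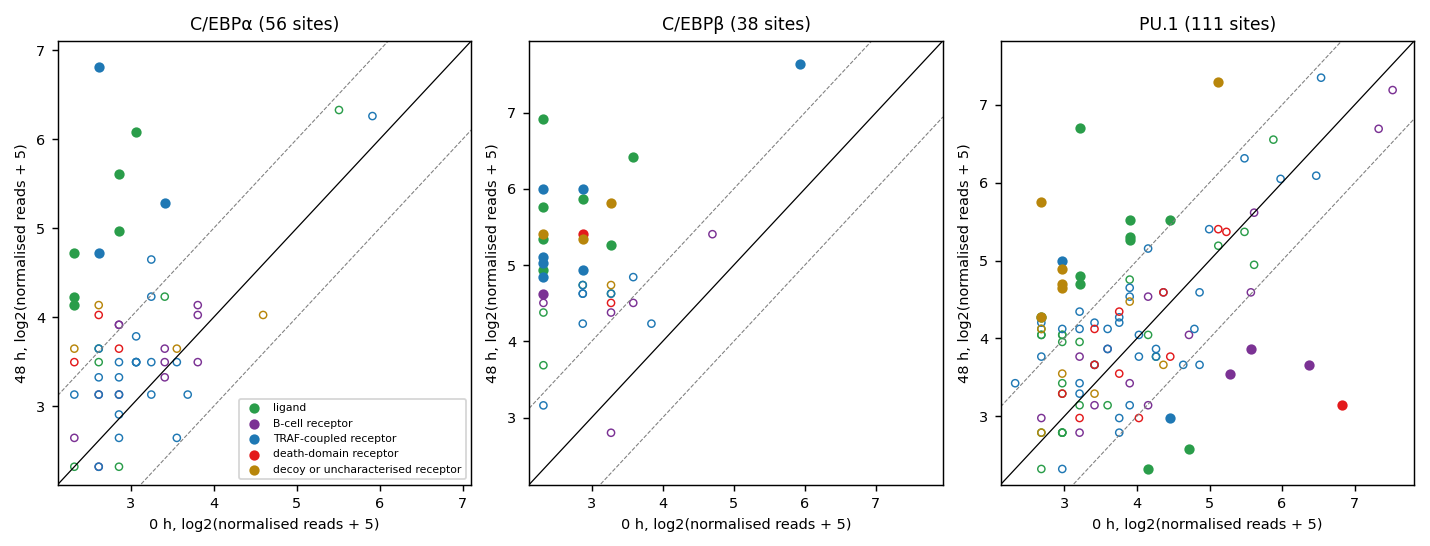
Reads of each site at 0 hpi (x axis) and 48 hpi (y axis), both as log2(normalised reads + 5), for the 56 C/EBPα, 38 C/EBPβ and 111 PU.1 sites, coloured by role. Filled points passed the rule for higher or lower, the solid line marks equal values and the dashed lines a 2-fold difference, and the filled points below the line in the PU.1 panel include 3 B-cell receptor sites.

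Tnfrsf13b encodes TACI, a receptor for BAFF and APRIL, and its locus held the highest C/EBPα value of the family at 60 min. At the site 4156 bp upstream of the gene, normalised C/EBPα reads were 1.13 at 0 hpi, 8.83 at 10 min, 114 at 30 min, 121 at 60 min, 66.5 at 3 hpi, 6.7 at 12 hpi, 3.96 at 24 hpi and 0 at 48 hpi. Binding was thus high from 30 min to 3 hpi and near its starting value from 12 hpi on. It was 17.6-fold lower at 48 than at 3 hpi, with the count of 0 read as 3 reads. Folds from a count of 0 were set in this way throughout. They leave out the counting error of the other count and have no interval, so they are not lower limits. For C/EBPβ the values were 4.67, 20.5, 3.45, 0 and 1.97 in the order of its 5 times, and PU.1 did not pass 2.87 at any time. The same early course was seen 10356 bp upstream, where C/EBPα had 5.64, 7.63, 45.4, 57.8, 48.5, 8.38, 7.91 and 6.29 in the order of the 8 times. There, PU.1 was called throughout, with 44 at 0 hpi, 88.2 at 3 hpi, 87.7 at 12 hpi, 59.9 at 24 hpi and 44 at 48 hpi. A further upstream site, 14156 bp from the gene, had C/EBPα at 67.7 at 30 min and 6.29 at 48 hpi, while C/EBPβ, called at 4 of 5 times, was 21 at 0 hpi and 37.4 at 48 hpi.

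**Figure D4:**
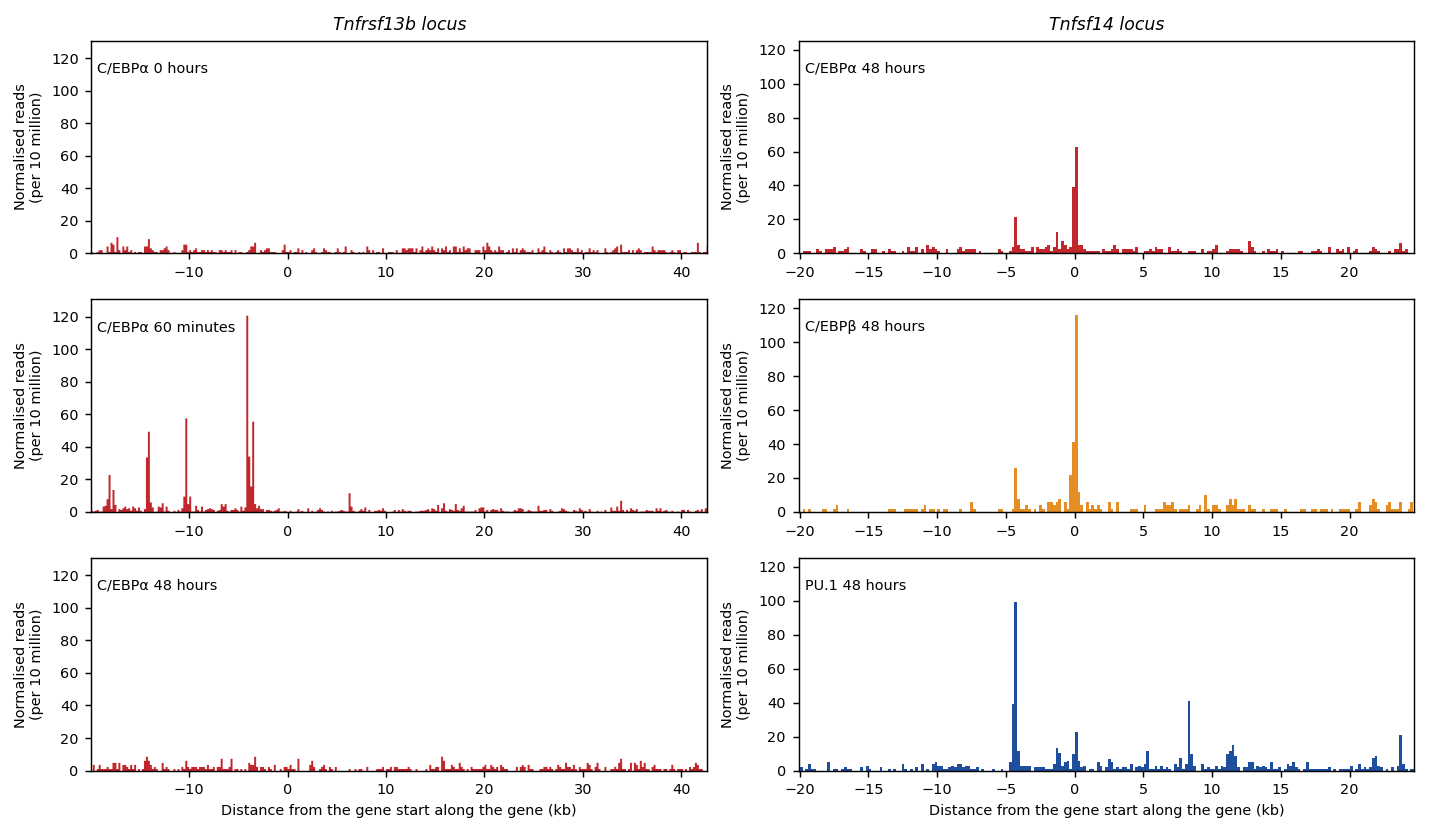
Normalised reads in 200-bp bins along the Tnfrsf13b locus (left, C/EBPα at 0 hpi, 60 min and 48 hpi) and the Tnfsf14 locus (right, C/EBPα, C/EBPβ and PU.1 at 48 hpi), by distance from the gene start in kb. In Tnfrsf13b the upstream peaks of 60 min, the highest at 121, are not seen in both other panels, and in Tnfsf14 the C/EBPs peak at the gene start and PU.1 at 4289 bp upstream.

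At a site credited to Tnfrsf17, which encodes BCMA, the APRIL receptor of plasma cells, C/EBPα was highest at 3 hpi. The site 9796 bp from the gene start, which lies in an intron of Snx29 and 716 bp from a start of that gene, had C/EBPα at 2.26, 6.02, 31.5, 34.8, 53.9, 20.1, 10.5 and 10.1 in the order of the 8 times. It was 5.36-fold lower at 48 than at 3 hpi (95% interval 2.55 to 13). C/EBPβ stayed between 0 and 12, PU.1 between 1.76 and 7.64, and neither was called. An intronic PU.1 site 1596 bp into the gene had 42.5 at 0 hpi, 24.3 at 3 hpi, 32.7 at 12 hpi, 15 at 24 hpi and 9.56 at 48 hpi, a log2 ratio of -1.71.

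Tnfrsf13c encodes the BAFF receptor, on which mature B cells depend, and its main PU.1 site was lower at the end. At the site 5289 bp from its start, PU.1 reads were 78 at 0 hpi, 88.2 at 3 hpi, 93.3 at 12 hpi, 39.6 at 24 hpi and 7.64 at 48 hpi. The value was level up to 12 hpi and 10.2-fold lower at 48 than at 0 hpi (95% interval 4.83 to 24.8). C/EBPα was there late, at 40.2 at 12 hpi, 34.3 at 24 hpi and 12.6 at 48 hpi, after values from 3.85 to 9.02 up to 3 hpi. C/EBPβ was between 0 and 6.4 and was not called. The other 4 sites of this locus were each called at 1 or 2 times.

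Cd40 encodes the receptor through which helper T cells activate B cells and macrophages. At 426 bp upstream of the gene all 3 factors were called. C/EBPα there was 9.02 at 0 hpi, 4.42 at 10 min, 24.6 at 30 min, 14.8 at 60 min, 41.3 at 3 hpi, 50.3 at 12 hpi, 29 at 24 hpi and 11.3 at 48 hpi. C/EBPβ was 4.67, 18.8, 24.1, 22.4 and 15.8, and PU.1 12.8, 31.9, 41.1, 20.3 and 18.2, at the 5 times in order. Thus all 3 had their highest value at 12 hpi, and the intervals at 0 and 48 hpi overlapped for each. For C/EBPβ, however, the values at 12 and 24 hpi differed by less than a single read counts for in those libraries. In an intron, at 974 bp, PU.1 alone was called, with 42.5, 51.7, 27.1, 31.7 and 19.1. Another intronic PU.1 site, at 6174 bp, had 34, 44.1, 29.9, 9.69 and 6.69 and was lower at 48 hpi, with a log2 ratio of -1.74. The Cd40 bins at 426 bp upstream and 974 bp downstream both hold the NF-κB consensus GGGNNTTCC. The upstream bin also holds an EBF1 match (TCCCNNGGG) and the downstream bin a PU.1 core match. An NF-κB match also lies in the bins 4156 bp upstream of Tnfrsf13b and 27957 bp from the Tnfrsf26 start.

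**Figure D5:**
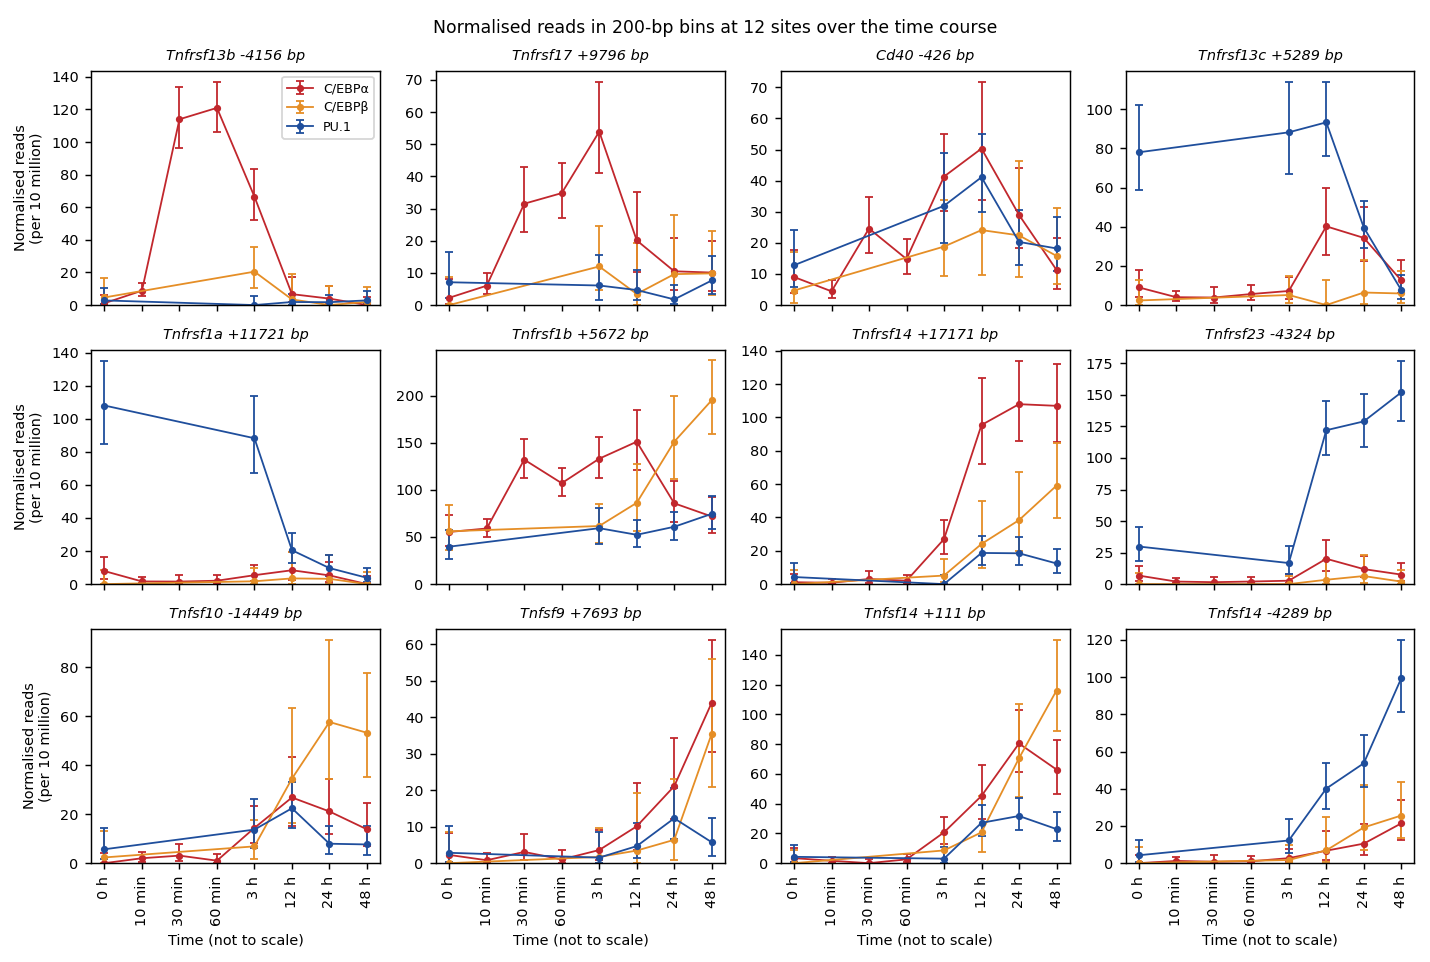
Normalised reads (y axis) in the strongest bin of 12 sites at each time (x axis, not to scale) for C/EBPα (red), C/EBPβ (orange) and PU.1 (blue), with exact Poisson 95% intervals. C/EBPα peaks by 60 min at Tnfrsf13b and is highest at 24 or 48 hpi at Tnfrsf14, Tnfsf9 and Tnfsf14, and PU.1 declines at Tnfrsf13c and Tnfrsf1a and increases at Tnfrsf23 and at the upstream site of Tnfsf14.

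Of the receptors that couple to TRAF adaptors, Tnfrsf1b (TNFR2, a receptor for membrane TNF) held the most sites of any member locus, 19. The intronic site 5672 bp into the gene was the only one of the 145 called in all 18 libraries. C/EBPα there was 55.3, 59, 132, 107, 133, 151, 85.7 and 71.7 in the order of the 8 times. C/EBPβ was 56, 61.6, 86.2, 151 and 195, and PU.1 39.7, 59.3, 52.3, 60.8 and 74.5. All 3 factors were thus already bound at 0 hpi, and only C/EBPβ passed the rule, 3.48-fold higher at 48 hpi (95% interval 2.21 to 5.69). C/EBPα was 1.3-fold higher (0.87 to 1.94) and PU.1 1.88-fold higher (1.2 to 3).

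Other sites of Tnfrsf1b had different courses. At 46672 bp from its start, 5203 bp from a start of Vps13d, C/EBPα was 5.64, 2.81, 10.8, 24.1, 105, 106, 63.3 and 33.9, highest at 3 and 12 hpi and 3.1-fold lower at 48 than at 3 hpi (2.02 to 4.9). C/EBPβ there was 2.34, 27.4, 24.1, 54.4 and 59.1, and PU.1 1.42 to 8.6. Upstream of the gene, at 11328 bp, PU.1 was 2.84, 7.6, 10.3, 18.5 and 26.8, 9.43-fold higher at 48 than at 0 hpi (2.38 to 81.7, from 2 reads at 0 hpi). C/EBPα at that upstream site was at most 10.1 up to 12 hpi, 19.8 at 24 hpi and 21.4 at 48 hpi, and C/EBPβ was 2.34, 8.56, 3.45, 12.8 and 19.7. A PU.1 site 12672 bp into the gene kept 63.1 to 83.7 at all 5 times.

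Tnfrsf14 encodes HVEM, the receptor of the ligand that Tnfsf14 encodes. Its strongest C/EBPα site, 17171 bp from the start and 12257 bp from a start of 2810405K02Rik, had 1.13 at 0 hpi, 0.803 at 10 min, 3.08 at 30 min, 2.05 at 60 min, 27 at 3 hpi, 95.5 at 12 hpi, 108 at 24 hpi and 107 at 48 hpi. The site was not called up to 60 min and then held to the end, 94.8-fold above 0 hpi (16.6 to 3786, from 1 read at 0 hpi) and 3.96-fold above 3 hpi (2.59 to 6.23). C/EBPβ followed with 0, 5.13, 24.1, 38.4 and 59.1, 8.44-fold higher at 48 than at 0 hpi with the 0 read as 3 reads. PU.1 was 4.25, 0, 18.7, 18.5 and 12.4. At 1029 bp upstream of the same gene C/EBPα was instead lower at 48 than at 3 hpi (20.1 and 63.8), with PU.1 at 58.1 to 98.9 throughout.

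Tnfrsf8 (CD30) held a PU.1 site 38366 bp into the gene with 87.9, 85.2, 84.9, 110 and 158. Its 48-hpi value was 1.79-fold over that of 0 hpi (1.33 to 2.44), under the 2-fold rule. C/EBPβ, 2.34 at 0 hpi, was 25.6 at 48 hpi at this site, and C/EBPα was called at 12 and 24 hpi, with 16.8 and 13.2. Tnfrsf12a (Fn14, the TWEAK receptor) had an intronic PU.1 site with 26.9, 50.2, 81.2, 44.9 and 37.3. Tnfrsf11a (RANK, needed for osteoclasts) and Tnfrsf19 (TROY) each had an early C/EBPα site, at 30.2 and 28.2 at 60 min and at 3.77 and 6.29 at 48 hpi. Tnfrsf4 (OX40) and Tnfrsf18 (GITR) held PU.1 sites alone, with no C/EBP bin at any time, and the highest PU.1 values credited to them were 13.4 and 22.7. Tnfrsf9, another T cell costimulator, had PU.1 sites of at most 22.4 and C/EBPα of at most 15.1 at its called sites.

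Among the receptors with a death domain, Tnfrsf1a (TNFR1, the main receptor of soluble TNF) had a PU.1 site that was lower at 48 than at 0 hpi. In an intron 11721 bp from the gene start, PU.1 was 108 at 0 hpi, 88.2 at 3 hpi, 20.5 at 12 hpi, 9.69 at 24 hpi and 3.82 at 48 hpi. Each value was under the one before, and the last was 28.2-fold below 0 hpi (10.6 to 106). Neither C/EBP was called in the locus, where this bin had C/EBPα of 0 to 8.38 and C/EBPβ of 0 to 3.45. Tnfrsf10b, the death receptor for TRAIL, kept a PU.1 site in its coding sequence at 32.6 to 42.9, and 28222 bp from its start, in Rhobtb2, C/EBPβ was 2.34 at 0 hpi and 37.4 at 48 hpi. Tnfrsf21 (DR6) had PU.1 at 21.3 to 37.3 at an intronic site, and Tnfrsf25 (DR3, the TL1A receptor) at 15.6 to 37.3 in coding sequence 2467 bp from a start of Espn.

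Tnfrsf22 and Tnfrsf23 encode decoy receptors for TRAIL and, with Tnfrsf26, lie side by side on chromosome 7. The 3 genes are related in sequence and only uniquely aligned reads were deposited, and how far this touches values inside them was not tested. In this cluster 6 of 12 PU.1 sites were higher at 48 hpi (10.7% of all PU.1 sites) and 0 lower (5.72% of all). At 4324 bp upstream of Tnfrsf23, in an intron of Osbpl5, PU.1 was 29.8, 16.7, 122, 129 and 152, with a step between 3 and 12 hpi and a 5.1-fold higher value at 48 than at 0 hpi (3.23 to 8.47). C/EBPα was called there at 12 hpi only, with 20.1, and C/EBPβ was at most 6.4. At 5524 bp upstream, PU.1 was 1.42, 6.08, 19.6, 30.8 and 48.7, with 1 read at 0 hpi and neither C/EBP called. The strongest C/EBPβ bin in the Tnfrsf26 locus lay at Cars, the cysteinyl-tRNA synthetase gene, in coding sequence and with a UTR in the bin. C/EBPβ there was 4.67, 5.13, 13.8, 16 and 51.2, and C/EBPα was between 6.59 and 19.2.

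Of the ligands, Tnfsf14 (LIGHT, which binds HVEM and the lymphotoxin β receptor) had late binding of all 3 factors. At 111 bp from its start, in the UTR, C/EBPα was 3.38 at 0 hpi, 1.61 at 10 min, 0 at 30 min, 2.56 at 60 min, 20.7 at 3 hpi, 45.2 at 12 hpi, 80.4 at 24 hpi and 62.9 at 48 hpi. C/EBPβ was 0, 8.56, 20.7, 70.5 and 116, and PU.1 4.25, 3.04, 27.1, 31.7 and 22.9. All 3 were higher at 48 than at 0 hpi. The folds were 18.6 for C/EBPα (6 to 93.1), 16.6 for C/EBPβ (its 0 read as 3 reads) and 5.39 for PU.1 (1.64 to 28). The upstream site at 4289 bp was led by PU.1, with 4.25, 12.2, 40.1, 53.7 and 99.4, 23.4-fold higher at 48 hpi (7.77 to 115). C/EBPα at this upstream site was 0 at 0 hpi, 0.769 to 2.7 from 10 min to 3 hpi, 6.7 at 12 hpi, 10.5 at 24 hpi and 21.4 at 48 hpi, and C/EBPβ 0, 1.71, 6.89, 19.2 and 25.6. Of the 8 ligand sites with higher PU.1, 4 were in this locus.

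Tnfsf9, a costimulatory ligand of activated antigen-presenting cells, had late C/EBPα binding. At 7693 bp from its start, 7136 bp from a start of Gm11110, C/EBPα was 2.26, 0.803, 3.08, 1.02, 3.6, 10.1, 21.1 and 44, and C/EBPβ 0, 1.71, 3.45, 6.4 and 35.5. The highest value of both was at 48 hpi, where C/EBPα was 12.2-fold over 3 hpi (4.38 to 47.4) and 19.5-fold over 0 hpi (5.01 to 167). PU.1 was 2.84, 1.52, 4.67, 12.3 and 5.73 there, but 36.3 to 44.1 at all 5 times at a site 907 bp upstream of the gene.

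Tnfsf18 (GITR ligand) had a like course at 12285 bp upstream. C/EBPα was 2.26, 1.61, 0.769, 1.02, 6.29, 5.03, 10.5 and 26.4, C/EBPβ 0, 0, 10.3, 9.61 and 49.3, and PU.1 1.42, 1.52, 3.73, 4.41 and 11.5. Each of the 3 was called at 48 hpi only. In its intron at 6315 bp, PU.1 was 9.93, 9.13, 10.3, 16.7 and 34.4. The bin at 12285 bp upstream holds a C/EBP, an AP-1 and a RUNX match.

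Tnfsf10 encodes TRAIL. At 14449 bp upstream, C/EBPα was 0, 2.01, 3.08, 1.02, 14.4, 26.8, 21.1 and 13.8, C/EBPβ 2.34, 6.85, 34.5, 57.6 and 53.2, and PU.1 5.67, 13.7, 22.4, 7.93 and 7.64. Both C/EBPs were higher at 48 than at 0 hpi, whereas PU.1 was highest at 12 hpi. The folds were 4.09 for C/EBPα (its 0 read as 3 reads) and 22.8 for C/EBPβ (3.76 to 933, from 1 read).

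Tnfsf12 (TWEAK) and Tnfsf13 (APRIL) are neighbours, and their strongest bins belonged to genes outside the family. The bin at 51 bp from a start of Eif4a1, the translation initiation factor gene, lies in both loci and had C/EBPα at 40.6, 40.9, 86.9, 66.5, 51.2, 117, 80.4 and 75.4. C/EBPβ there was 7.01, 13.7, 13.8, 25.6 and 80.8, 11.5-fold higher at 48 hpi (3.68 to 58.2), and PU.1 was 0.956 to 9.13 and was not called. The bin 46 bp from a start of Cd68, which encodes a macrophage lysosomal protein, had PU.1 at 53.9, 113, 88.7, 69.6 and 88.9, C/EBPα at 2.81 to 16.8 and C/EBPβ at 3.45 to 19.7. At the start of Tnfsf13 itself, PU.1 was 17 at 0 hpi, 15.2 at 3 hpi, 56.9 at 12 hpi, 33.5 at 24 hpi and 41.1 at 48 hpi, a log2 ratio of 1.07 from 0 to 48 hpi.

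Lower PU.1 at ligands was seen at 2 weak sites. The site 40520 bp from the Tnfsf4 start (OX40 ligand) had PU.1 at 21.3, 12.2, 4.67, 1.76 and 0.956, and the intronic site of Tnfsf11 (RANKL) at 21749 bp had 12.8, 1.52, 3.73, 2.64 and 0. At each, PU.1 was called at 0 hpi only and neither C/EBP was called. At the Tnfsf11 site the value was 4.45-fold lower at 48 than at 0 hpi, with the 0 read as 3 reads. Tnfsf13b, the gene of BAFF, had a single site, 142 bp upstream, with C/EBPα at most 15.1 and C/EBPβ at most 15.8. The single C/EBPα site of Tnfsf15 was 18.9 at 3 hpi and 0 at 24 and 48 hpi, and the PU.1 site of Tnfsf8 was at most 11.2.

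Consensus matches were counted in the bins of all sites on both strands. A C/EBP match (TTGCNNAA) was found in 22.1% of the 145 member bins and 16.6% of all 59999 bins, and in 52.6% of C/EBPβ member bins against 39.1% of all C/EBPβ bins. The PU.1 consensus (GAGGAAGT) was in 14.4% of PU.1 member bins against 20.8% of all, and its core GAGGAA, which it contains, in 50.5% against 50.3%. The NF-κB consensus (GGGNNTTCC) was in 8.28% of member bins against 3.55% and AP-1 (TGACTCA or TGAGTCA) in 11.7% against 6.78%. RUNX (TGTGGTT) was in 8.28% against 6.56% and EBF1 (TCCCNNGGG) in 6.9% against 5.56%. No test was made of these shares, and a match in these letters is a description only.

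Other genes of the pathway were counted in the same way: 7 ligands, 7 receptors and 17 signalling genes outside the symbol rule. Of these 31, 28 loci held a PU.1 bin (75.1% of all genes), 19 a C/EBPα bin (55.4%) and 15 a C/EBPβ bin (39.3%), with 165 sites. From 0 to 48 hpi C/EBPα was higher at 10 of 51 sites (12.3% of all) and lower at 0 (0.431%), C/EBPβ higher at 12 of 31 (41.8%) and lower at 0 (0.183%), and PU.1 higher at 12 of 132 (10.7%) and lower at 4 (5.72%). From 3 to 48 hpi C/EBPα was lower at 11 of the 51 (23.8% of all) and higher at 1 (2.43%). The neighbouring genes Tnf, Lta and Ltb had 14, 14 and 13 sites, many of them shared, with C/EBPα called at all 8 times in the loci of Tnf and Lta. Tnfaip3, which encodes the NF-κB inhibitor A20, had 2 sites with higher C/EBPα and 3 with higher C/EBPβ, and Cflar, which encodes the caspase-8 inhibitor c-FLIP, had 3 with higher C/EBPβ and 3 with higher PU.1. Cd40lg, Edar and Eda2r had no site.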

How the data were processed

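In the files, the authors deposited positions of uniquely aligned ChIP-seq reads (mm9), 1 line per read, as BED coordinates with no score used here. Per the submitters' processing notes and the methods, reads were aligned with ELAND or Bowtie and regions called with HOMER (versions not given in the sources used here), and identical reads were removed. Here 1 read per position and strand was kept, its 5′ end was moved 75 bp inward and reads were counted in 200-bp bins in Python 3.11.15 with numpy 2.4.6, scipy 1.17.1 and pandas 2.3.3. A bin was called at a Poisson p of at most 1e-07 at the genome mean (2000000000 bp), 4-fold over the surrounding 10 kb and a local p of at most 0.0001. Sites were credited to the member with the nearest annotated start (GENCODE vM1, 22367 entries merged to 22271 genes). There was no control library. Calling was tested on simulated data. Members, roles, gene lists and consensus sequences were chosen with earlier results of these data known. Full values were given for the strongest sites of the 8 (C/EBPα), 6 (PU.1) and 6 (C/EBPβ) loci with the most reads, for the 4 largest differences in each direction per factor from 0 to 48 hpi, and for Cd40, and values of other sites were chosen after they were seen. A further site that this rule names is not reported here.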

Additional observations from a re-analysis of the deposited data

How the results depend on the processing

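With 1 library per factor and time, replicates could not be left out. No paired analysis was possible because the groups hold 1 library each. Of 133 counts recomputed under the alternatives, 120 stayed within 1.5 times the reported count. These 120 include counts of 0 lower C/EBPα and C/EBPβ sites that stayed at 0. Keeping duplicates could not change C/EBPβ or PU.1 counts, because their libraries held 0% duplicates. Of 216 log2 ratios at sites the naming rule chose, 213 lay inside the 95% counting interval of the same ratio without the pseudocount. The other 3 lay below it, each at a site with 0 or 1 C/EBPα read at 0 hpi. Of these, 2 came with a window of 600 bp and 1 with the 5′ end moved by 50 bp. The intervals are wide or open-ended at such low counts, so lying inside one is a weak check. Of the ratios that passed the rule for higher or lower, 0 changed sign, and 2 that did not pass it did so with a window of 600 bp, from 0.38 to -0.12 for PU.1 at the Cd40 site 426 bp upstream and from -0.29 to 0.43 for C/EBPα at the Tnfrsf13b site 4156 bp upstream. Needing 1.5 times as many reads left 92 sites. Thinned libraries gave 12 higher C/EBPβ sites and 9 higher PU.1 sites. A flank of 10 kb, which holds fewer sites, gave 5 higher C/EBPα and 11 higher C/EBPβ sites from 0 to 48 hpi, and 3 higher and 6 lower C/EBPα sites from 3 to 48 hpi. Without the rule on intervals, 18 C/EBPα, 33 C/EBPβ and 27 PU.1 sites were higher from 0 to 48 hpi. A 3-fold rule gave 3 higher C/EBPα sites from 3 to 48 hpi. With 24 hpi in place of 48 hpi, an alternative chosen after seeing the data, 7 C/EBPβ and 9 PU.1 sites were higher. Scaling to reads outside called bins moved the median log2 ratio over all sites by 0.08 or less. Depth limits the C/EBPβ libraries most, since the smallest holds 2901164 reads and a site then needs 7 reads to be called.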
